A study of Mus musculus with 7 samples.

Results

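Homologous recombination repairs a broken DNA molecule by copying an intact sister. The 9 genes described here act at successive steps of it or beside it: Brca1, Brca2, Rad54l, Blm, Exo1, Fanca, Fancd2, Brip1 and Chek1. They were taken from the array by name, as every non-control probe that carries one of these gene names. Each gene had 1 probe, which gave 9 probes of 39429 on the array. The RefSeq accession of each of the 9 probes maps to the same gene symbol in the reference table of mouse genes.

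The arrays measured total RNA of C2C12, an established line of mouse myoblasts that differentiates into multinucleate myotubes. The question was what exosomes, small vesicles shed by cells, do to the transcriptome of the muscle cells that take them up. All recipient cultures received exosomes of other C2C12 cultures in serum-free medium for 24 h. In EXO-Post BSA (4 arrays, Exo-BSA in the labels) the donor cells had been treated with BSA, the carrier protein. In EXO-Post Palm (3 arrays, EXO-Palm in the labels) they had been treated with 0.5 mmol/l palmitate, a saturated fatty acid, and both kinds of exosome were collected 9 h after the treatment had been removed. All differences are between these groups of recipient cells, and cells without exosomes were not analysed here. The labels call the arrays biological replicates and the cell type myoblast, whereas the study's text calls the recipient cells myotubes. Myotube genes such as Acta1, Myh3, Tnnt3 and Des were well above background on all 7 arrays, and Myf5, a gene of undifferentiated myoblasts, on 0. Other genes expressed in myoblasts, Pax7, Myod1, Id1 and Id3, were well above background on all 7 arrays. The endothelial gene Cdh5 and the liver gene Alb were well above background on 0 arrays. The labels' cell line field runs from C2C12 to C2C18 over the 7 arrays, whereas the source name is C2C12 throughout.

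Background of the pathway helps to place the genes. When both strands of a chromosome break, nucleases trim the ends back to single strands. BRCA2 prepares these strands to invade the sister molecule, from which the lost stretch is copied. The Fanconi anaemia proteins act in the same network when a crosslink joins the strands of DNA and stops a replication fork. A sister molecule exists only after replication, so many genes of this pathway are transcribed mainly from late G1 through S and G2 phase. In differentiated myotubes, which have left the cell cycle, transcripts of such genes are usually low.

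A signal is given below as log2 of the background-subtracted intensity minus the 75th percentile of its array, so 0 is that percentile. A probe counted as well above background when the scanner software marked it so. To be tested, a probe had to pass in 75% or more of the arrays in either group, and 21589 probes did. The 75th percentile was an intensity of 549.4 to 1621, and 48.5 to 70.3% of the probes were well above background on an array. EXO-Post BSA replicate 4 had the lowest of these shares and EXO-Post Palm replicate 1 the highest. There were 4 slides. On slide 1, EXO-Post Palm replicate 1 shared the glass with replicates 1 and 2 of EXO-Post BSA, and on slide 3, EXO-Post Palm replicate 3 shared it with replicate 4 of EXO-Post BSA. The remaining arrays each had a slide to themselves. EXO-Post BSA replicate 3 was read with another version of the scanner software.

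No repair gene passed the test at an adjusted p of 0.05. Of the 9 probes, 5 were bright enough to be tested, those of Brca2, Exo1, Fanca, Blm and Chek1. By limma, 0 of these 5 had an adjusted p below 0.05, beside 0.533% of all tested probes in either direction. The methods' t-test on the same values gave 0 as well. At an unadjusted limma p below 0.05, 3 of the 5 were higher with EXO-Post Palm, beside 4.85% of all tested probes. Those were Brca2, Exo1 and Fanca, with log2 differences of 1.14, 1.09 and 1.76. In these 3 every EXO-Post Palm array lay above every EXO-Post BSA array, beside 5.4% of all tested probes. All 5 differences were above 0, beside 47.3% of all tested probes, and their median was 1.09 against -0.02 over all tested probes. Fanca met the filter through the EXO-Post Palm arrays alone, the group in which it was higher, and without it both counts of 3 of 5 were 2 of 4. The count above 0 and the median also include Fanca. Of the other 4 tested genes, Brca2 differed by 1.14, Exo1 by 1.09, Blm by 0.50 and Chek1 by 0.48. A probe that enters as Fanca did had to differ, and the 9 genes were chosen with earlier results of these data known. The counts and the median are therefore a description, with or without Fanca. The remaining 4 of the 9 probes, those of Brca1, Rad54l, Fancd2 and Brip1, did not meet the filter.

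**Figure D1:**
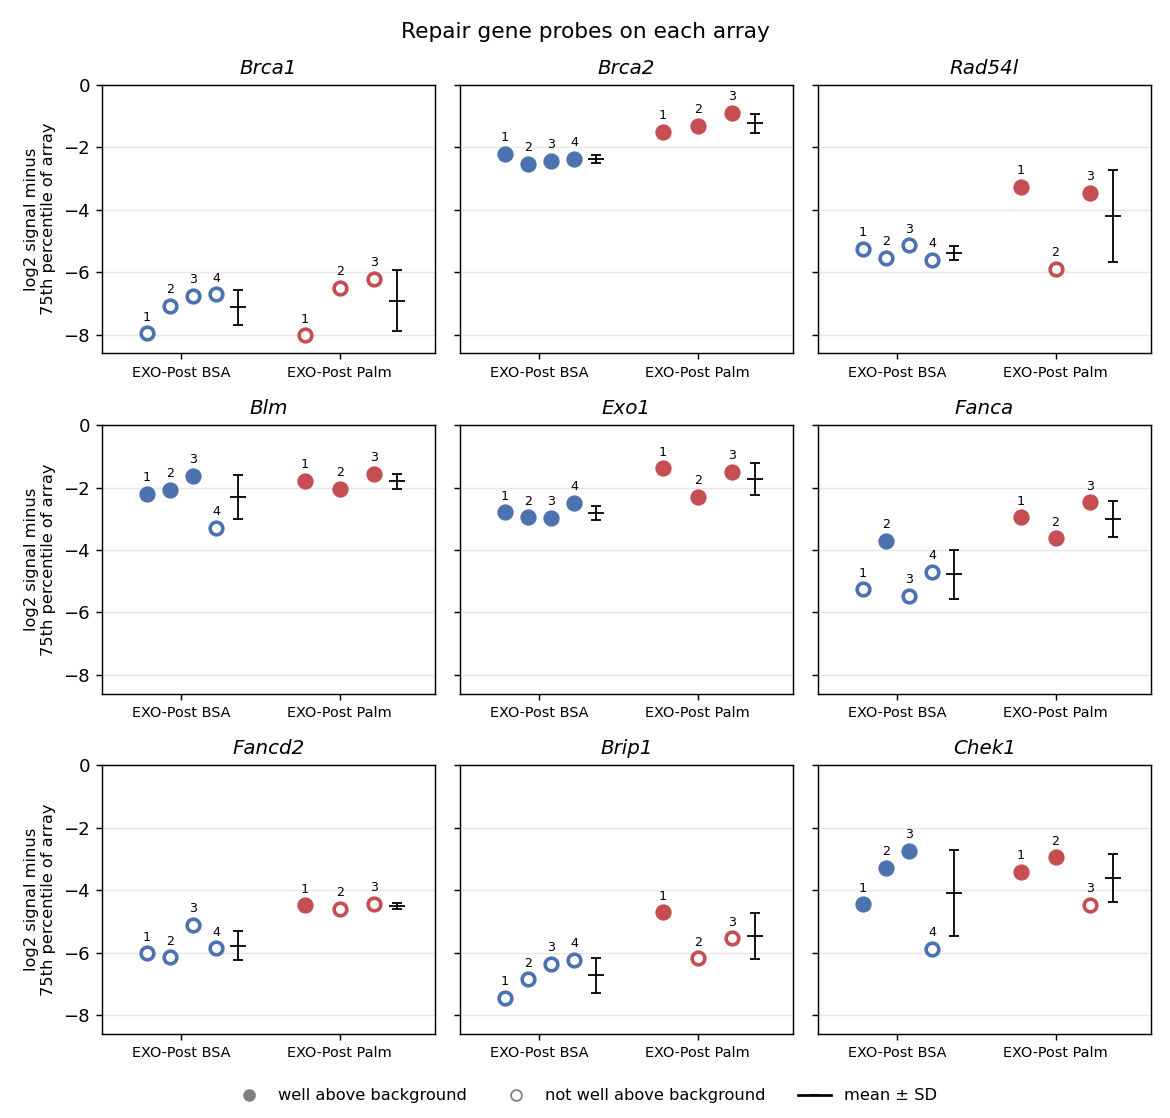
Signal of the 9 repair gene probes on each array, as log2 of the intensity minus the 75th percentile of the array. Numbers are replicates, filled points were well above background, open points were not, and the bars give mean ± SD of 4 EXO-Post BSA or 3 EXO-Post Palm arrays. Brca2, Exo1 and Fanca lay higher on all 3 EXO-Post Palm arrays, Blm and Chek1 overlapped, and Brca1 was not well above background on any array.

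Brca1 and Brca2 are the best known genes of the pathway. BRCA1, a ubiquitin ligase when bound to BARD1, promotes end trimming and helps to bring BRCA2 to the break. Its probe lies on mm9 at chr11:101359283-101363319 on the minus strand. The 60 bases of the probe span 4037 bases of genome there, so the probe crosses at least 1 intron of Brca1. The Brca1 signal was -7.95, -7.08, -6.76 and -6.71 in EXO-Post BSA replicates 1 to 4 and -8.02, -6.49 and -6.21 in EXO-Post Palm replicates 1 to 3. It was not well above background on any of the 7 arrays, and no fold is given. The lowest value of each group came from slide 1.

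The Brca2 probe lies at chr5:151372225-151372284 on the plus strand and was well above background on all 7 arrays. Its signal was -2.20, -2.52, -2.42 and -2.37 in EXO-Post BSA replicates 1 to 4. In EXO-Post Palm replicates 1 to 3 it was -1.51, -1.30 and -0.89. The EXO-Post BSA arrays were close together and every EXO-Post Palm array lay above them. The log2 difference was 1.14 ± 0.22 (SE, n = 4 and 3), which is 2.20-fold with a 95% interval of 1.56 to 3.11. The limma adjusted p was 0.0804. The exact 2-sided permutation test over the 35 ways to part the arrays gave p = 0.0286, the smallest it can give. Brca2 was higher with EXO-Post Palm within both slides that held both groups, by 0.85 on slide 1 and by 1.47 on slide 3 on the log2 scale. With slide as a block the difference was 1.12 with a limma adjusted p of 0.243. When only the 17717 probes well above background on all 7 arrays were tested, the limma adjusted p was 0.0408.

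RAD54L is a motor protein that works during strand invasion. Its probe lies at chr4:115769618-115769677 on the minus strand. Rad54l gave -5.24, -5.54, -5.14 and -5.60 in EXO-Post BSA replicates 1 to 4 and -3.26, -5.89 and -3.45 in EXO-Post Palm replicates 1 to 3. It was well above background on 2 arrays, EXO-Post Palm replicates 1 and 3, while EXO-Post Palm replicate 2 was the lowest of all 7. The groups therefore overlapped. With no EXO-Post BSA array well above background, no test or fold is given.

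Exo1 and Blm stand for the processing of DNA ends and of joint molecules. EXO1 is an exonuclease that trims broken ends and also serves mismatch repair, and its probe lies at chr1:177838682-177838741 on the plus strand. The Exo1 signal was -2.80, -2.96, -2.98 and -2.50 in EXO-Post BSA replicates 1 to 4 and -1.38, -2.30 and -1.49 in EXO-Post Palm replicates 1 to 3. All 7 arrays were well above background, and the groups did not overlap, although EXO-Post Palm replicate 2 and EXO-Post BSA replicate 4 lay close together. The log2 difference was 1.09 ± 0.27 (SE, n = 4 and 3), or 2.13-fold with a 95% interval of 1.38 to 3.28. The limma adjusted p was 0.194, and the exact permutation test gave p = 0.0286. Exo1 was higher by 1.50 within slide 1 and by 1.01 within slide 3, and with slide as a block the difference was 1.29 and the limma adjusted p 0.133. When EXO-Post Palm replicate 2 was left out, they were 1.38 and 0.0476. With normexp and quantile normalisation of the median signal the difference was 0.48.

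BLM is a RecQ helicase that takes part in end trimming and dissolves joint molecules without crossover. Its probe lies at chr7:87600243-87600302 on the minus strand. The Blm signal was -2.20, -2.07, -1.63 and -3.29 in EXO-Post BSA replicates 1 to 4, and -1.78, -2.05 and -1.57 in EXO-Post Palm replicates 1 to 3. It was well above background on all arrays but EXO-Post BSA replicate 4, and that array was the only one below -2.20. The log2 difference was 0.50 ± 0.37 (SE, n = 4 and 3), with a 95% interval of -0.35 to 1.34 and 0.695 as the limma adjusted p. It was 0.17 when that array was left out. Within slide 3, where that array is the sole EXO-Post BSA array, Blm differed by 1.72, against 0.35 within slide 1, and with slide as a block the difference was 0.94.

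Fanca, Fancd2 and Brip1 belong to the Fanconi anaemia pathway. FANCA is part of the core complex that attaches ubiquitin to FANCD2 at a blocked fork, and its probe lies at chr8:125792210-125792269 on the minus strand. The Fanca signal was -5.26, -3.70, -5.46 and -4.70 in EXO-Post BSA replicates 1 to 4 and -2.95, -3.63 and -2.47 in EXO-Post Palm replicates 1 to 3. It was well above background on all 3 EXO-Post Palm arrays but on only 1 of 4 EXO-Post BSA arrays, replicate 2. That array lay just under EXO-Post Palm replicate 2, so the groups met without overlapping. The log2 difference was 1.76 ± 0.45 (SE, n = 4 and 3). It is set against a group that was mostly not well above background, and no fold is given. Fanca met the filter through the EXO-Post Palm arrays alone, so the p-values given here for Fanca are a description. The limma adjusted p was 0.198, and the exact permutation test gave p = 0.0571. Fanca differed by 1.53 within slide 1 and by 2.23 within slide 3, and with slide as a block by 1.83 with a limma adjusted p of 0.254. It was 0.58 when the local background was subtracted from the median signal, low values were raised to a floor and the arrays were quantile normalised.

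FANCD2, once ubiquitinated, marks the blocked fork for repair, and its probe lies at chr6:113541170-113541229 on the plus strand. Fancd2 gave -6.02, -6.15, -5.11 and -5.87 in EXO-Post BSA replicates 1 to 4 and -4.49, -4.61 and -4.44 in EXO-Post Palm replicates 1 to 3. The EXO-Post Palm arrays lay within 0.2 of each other and above every EXO-Post BSA array, but only EXO-Post Palm replicate 1 was well above background. With 2 of 3 EXO-Post Palm arrays and all 4 EXO-Post BSA arrays not well above background, no test or fold is given.

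BRIP1 is a helicase that binds BRCA1 and is also known as FANCJ, and its probe lies at chr11:86011372-86011431 on the minus strand. Brip1 gave -7.45, -6.86, -6.37 and -6.23 in EXO-Post BSA replicates 1 to 4 and -4.71, -6.18 and -5.54 in EXO-Post Palm replicates 1 to 3. Again only EXO-Post Palm replicate 1 was well above background. With 6 of 7 arrays not well above background, the order of the arrays carries no weight, and no test or fold is given. EXO-Post Palm replicate 1, which alone measured Fancd2 and Brip1 well above background, was also the array with the most probes well above background. The part of this in both results was not tested.

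CHEK1 is the kinase through which ATR slows the cell cycle while a fork is blocked or a break is repaired. Its probe lies at chr9:36516068-36516127 on the minus strand. The Chek1 signal was -4.45, -3.29, -2.75 and -5.88 in EXO-Post BSA replicates 1 to 4, and -3.41, -2.95 and -4.47 in EXO-Post Palm replicates 1 to 3. The groups overlapped widely. EXO-Post BSA replicate 4 and EXO-Post Palm replicate 3, which share slide 3, were not well above background. The log2 difference was 0.48 ± 0.71 (SE, n = 4 and 3), with a 95% interval of -1.13 to 2.09 and a limma adjusted p of 0.854. Chek1 differed by 0.46 within slide 1 and by 1.41 within slide 3. Without EXO-Post BSA replicate 4 the difference was -0.11, so its direction rested on that array.

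**Figure D2:**
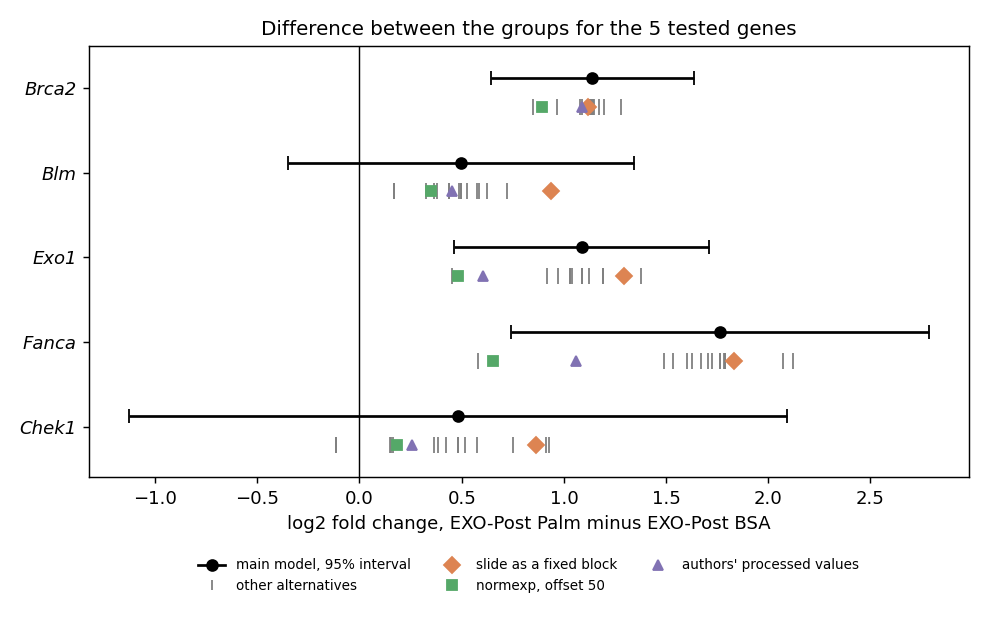
Log2 fold change, EXO-Post Palm minus EXO-Post BSA, of the 5 tested repair genes. Black points and bars are the model on all 7 arrays with its 95% interval, and the marks below are the alternatives: grey ticks for arrays left out and other settings, diamonds for slide as a block, squares for normexp with an offset of 50, triangles for the authors' processed values. Intervals of Brca2, Exo1 and Fanca lay above 0 and those of Blm and Chek1 spanned 0. Fanca met the filter through the EXO-Post Palm arrays alone, so its interval is a description. Over the alternatives, Fanca reached from 0.58 to 2.12 and Chek1 from -0.11 to 0.93.

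The size of the difference varied with the processing. The median over the 5 tested genes was 1.09 from the processed signal, 0.48 with normexp and quantile normalisation and 0.45 with a floor and quantile normalisation, both from the median signal, and it was 0.60 from the authors' processed values. These medians include Fanca, which met the filter through the EXO-Post Palm arrays alone. Brca2 moved least, between 0.85 and 1.28 over 20 alternatives, and it was above 0 in 20 of them. The 5 genes did not all vary together across the arrays. Over the 7 arrays of both groups, Pearson's r was 0.846 for Brca2 with Exo1, 0.821 for Fanca with Exo1 and 0.780 for Brca2 with Fanca. Blm and Chek1, both lowest on EXO-Post BSA replicate 4, had an r of 0.738. Chek1 had an r between -0.118 and 0.0752 with Brca2, Fanca and Exo1. These values describe 7 points that share 2 groups and 4 slides.

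The number of repair genes well above background was 4, 5, 4 and 2 of 9 on the EXO-Post BSA arrays, in the order of their replicate numbers. On the EXO-Post Palm arrays it was 8, 5 and 5 of 9. Over all probes, the shares well above background were 62, 66.9, 54.1 and 48.5% on the EXO-Post BSA arrays. They were 70.3, 52.8 and 52% on the EXO-Post Palm arrays. The highest and the lowest count of repair genes fell on the arrays with the highest and the lowest share. Linear signal in units of the 75th percentile was also summed over the 9 probes. The sum was 0.589 to 0.886 in EXO-Post BSA and 1.14 to 1.63 in EXO-Post Palm. The groups did not overlap in this sum, most of which came from Brca2, Exo1 and Blm, so it is a description. Of the lists below, the sum of other homologous recombination genes overlapped (18.6 to 21.9 against 18.2 to 27.8). That of checkpoint genes did not (12.1 to 15 against 15.4 to 18.3).

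Many repair genes are known targets of E2F factors and of the NF-Y factor that binds CCAAT boxes, so the promoters were read for such letters. RefSeq promoter windows of GRCm38.p6, 250 bases before to 50 after the start, were at hand for 7 of the 9 genes, all but Exo1 and Fancd2. The E2F-type cores searched on both strands were TTGGCGC as the first, then TTCCCGC and as the last TTCGCGC, and any of them was found in 4 of the 7, those of Brca1, Brca2, Brip1 and Chek1, and in 8.07% of all 32851 windows. In Brca1 and Chek1 the match lay after the start, and in Brip1 it ran across it. A CCAAT box on either strand was found in 5 of the 7, those of Rad54l, Blm, Fanca, Brip1 and Brca1, and in 37.4% of all windows. The cell cycle element known as CHR, with the letters TTTGAA or its variant TTCGAA, was found in 0 of the 7 and in 19.2% of all windows. The reverse complement of the first core can run into a CCAAT box, but no matches overlapped in these 7 windows. The matches are a description of the letters and not of binding, and they did not part the genes whose groups were separate (Brca2, Fanca) from those that overlapped (Blm, Chek1). The stretches before the start are shown for the tested genes with a match there, on the strand of the gene, with the matches in capitals. Brca2 is from chr5:150522433-150522479, plus strand. Blm is from chr7:80535135-80535204 and Fanca from chr8:123318577-123318646, both minus strand.
Brca2: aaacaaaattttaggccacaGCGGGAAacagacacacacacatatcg
Blm: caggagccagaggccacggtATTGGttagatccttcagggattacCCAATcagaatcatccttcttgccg
Fanca: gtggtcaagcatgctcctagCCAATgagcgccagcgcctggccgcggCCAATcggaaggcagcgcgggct
In Brca2 the capitals are the reverse complement of TTCCCGC, which begins at -168 from the start site. In Blm one box lies on each strand, and in Fanca both boxes lie on the strand of the gene, at -50 and -23 from the start site.

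Other genes of homologous recombination were examined as a list of 30, of which 26 were tested. This list and those that follow were also chosen with earlier results of these data known, so their counts and medians are a description. None of the 26 had a limma adjusted p below 0.05. At an unadjusted limma p below 0.05, 5 of 26 were higher, beside 4.85% of all tested probes. Of the 26 differences, 20 were above 0, beside 47.3% of all tested probes. Their median log2 difference was 0.30. Eme1, a subunit of a nuclease that cuts joint molecules, had the highest difference of the list, 1.53 (limma adjusted p 0.143). It was well above background on 2 of 4 EXO-Post BSA arrays, so it met the filter through the EXO-Post Palm arrays alone. Eme1 is among the 5 higher genes, so that count and the adjusted p of Eme1 are a description. Rmi1, a partner of BLM, had the lowest, -0.34, by its brighter probe, whereas its other probe gave 0.28.

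The partners of BRCA1 gave no uniform picture. Bard1 had 3 probes. The brightest differed by 1.44 on the log2 scale (limma adjusted p 0.221), a second by -0.11, and the third was not well above background on any array. Palb2, which joins BRCA1 to BRCA2, had 2 probes, each well above background on 1 array of each group, and neither was tested.

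Of 13 other Fanconi anaemia genes, 10 were tested. None passed an adjusted p of 0.05 by limma, and 3 of 10 were higher at an unadjusted p below 0.05, beside 4.85% of all tested probes. The median was 0.32, with 8 differences above 0, beside 47.3% of all tested probes. Fanci, whose protein pairs with FANCD2, had the highest. It gave -4.12, -4.22, -5.52 and -4.58 in EXO-Post BSA replicates 1 to 4 and -2.88, -3.16 and -2.10 in EXO-Post Palm replicates 1 to 3, a log2 difference of 1.90 with a limma adjusted p of 0.106. All 3 EXO-Post Palm arrays of Fanci lay above the EXO-Post BSA arrays. Of the latter only 2 of 4 were well above background, so Fanci too met the filter through the EXO-Post Palm arrays alone. Fanci is among the 3 higher genes, so that count and the adjusted p of Fanci are a description. Fancb, another core complex subunit, differed by 1.15 (limma adjusted p 0.226). Fancm, a DNA translocase, had the lowest difference of the list, -0.34.

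Of 17 checkpoint genes, 15 were tested and 0 passed the adjusted p by limma. At an unadjusted limma p below 0.05, 3 were higher, beside 4.85% of all tested probes, and the median was 0.16. The highest was Timeless, a component of the fork protection complex, at 1.08 (limma adjusted p 0.139). Atr, the kinase upstream of CHEK1, differed by -0.14 with a limma adjusted p of 0.870, and Topbp1, an activator of ATR, had the lowest value, -0.17. Targets of p53, which respond to DNA damage, had a median of -0.16 over 15 tested genes. Of these genes 5 were above 0, beside 47.3% of all tested probes. The list ran from Btg2, an anti-proliferative gene, at -0.79 to Ccng1, a cyclin gene, at 0.65. By limma 0 passed the adjusted p, with 3 lower at an unadjusted p below 0.05. The share of all tested probes lower at that p is not reported here.

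Other repair routes formed lists of their own. Non-homologous end joining, which rejoins ends without a template, had 9 tested genes with 3 above 0 and a median of -0.10. They ran from the polymerase gene Polm at -0.43 to Prkdc, the DNA-dependent kinase, at 0.32. Mismatch repair had 7 tested genes with 5 above 0 and a median of 0.16, from Pms1 at -0.16 to Msh6 at 0.54. Base and nucleotide excision repair had 20 tested genes with 11 above 0 and a median of 0.06, from the glycosylase gene Neil1 at -0.58 to Ung, the uracil glycosylase, at 1.02. In these 3 lists 0 genes passed the adjusted p by limma. At an unadjusted p below 0.05, 1 gene was lower in end joining, 1 higher in mismatch repair and 1 higher in excision repair. Over all tested probes, 47.3% had a difference above 0 and 4.85% were higher at that unadjusted limma p.

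**Figure D3:**
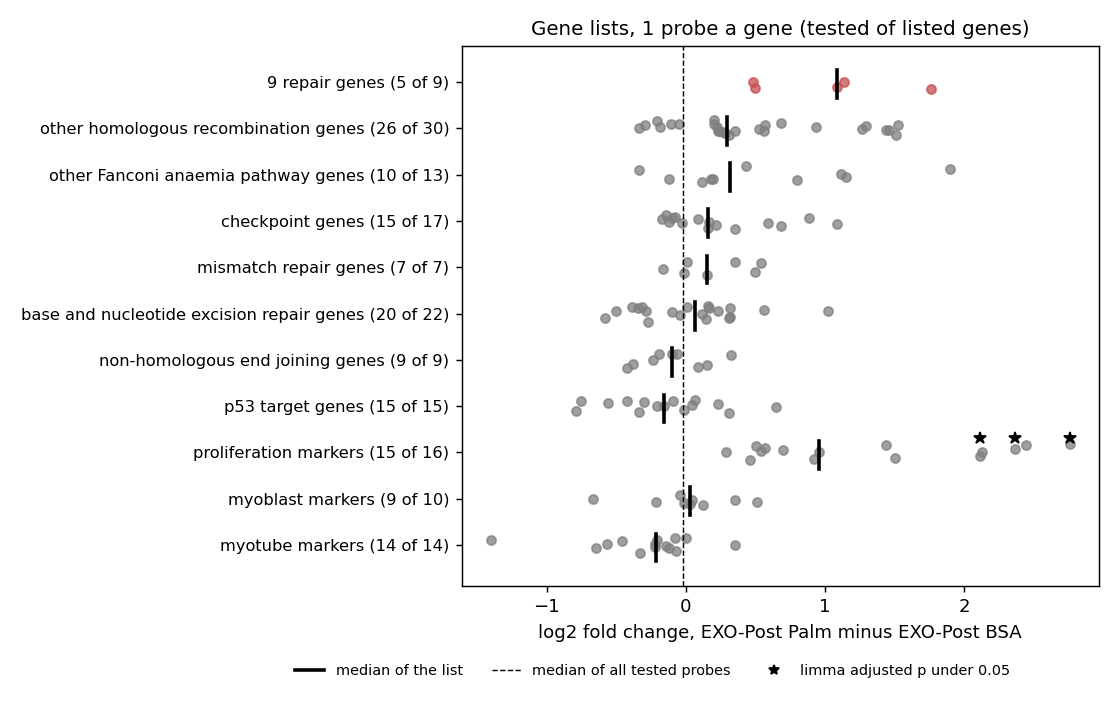
Log2 fold change, EXO-Post Palm minus EXO-Post BSA, of tested genes in 11 lists, 1 probe a gene (the brightest tested), with the number tested of those listed. Thick lines are list medians, the dashed line is the median of all tested probes, -0.02, and stars mark limma adjusted p below 0.05. The repair genes (median 1.09, Fanca included) lay to the right of other homologous recombination genes (0.30). The proliferation markers (0.96) hold all 3 starred genes.

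Proliferation markers were also compared. All 15 tested had a difference above 0, beside 47.3% of all tested probes, with a median of 0.96. Beside 0.533% of all tested probes in either direction, 3 of these markers rose past the adjusted p by limma. They were Ccnb1, the mitotic cyclin B1, at 2.76 (adjusted p 0.0108), Top2a, a topoisomerase of dividing cells, at 2.36 (0.0141) and Mki67, the Ki-67 antigen, at 2.12 (0.0436). The lowest was Rrm2, a ribonucleotide reductase subunit, at 0.29. The summed level of 14 markers with a value on every array was 20.6 to 25.5 in EXO-Post BSA and 35.2 to 58.5 in EXO-Post Palm, highest on EXO-Post Palm replicate 3 and lowest of that group on replicate 2. Myotube markers had 1 of 14 differences above 0, from Neb at -1.40 to Ckm at 0.35, with a median of -0.21. Their summed level over 12 genes was 933 to 1140 in EXO-Post BSA and 743 to 892 in EXO-Post Palm, and 0 passed the adjusted p by limma, with 1 lower at an unadjusted p below 0.05. The second Neb probe differed by -0.01. Myoblast markers had 5 of 9 above 0, from Itga7 at -0.67 to Vcam1 at 0.51, a median of 0.03 and a sum of 225 to 252 against 133 to 187, most of which was Itga7 alone. Of 9 non-muscle markers 4 were tested, with the highest difference for Emr1, at 0.58, and 0 past the adjusted p by limma. Their sum over all 9 was 0.408 to 0.474 against 0.406 to 0.563, and Pecam1 was well above background on all 7 arrays. In RNA of whole cultures, more cells that divide and more transcript per cell cannot be told apart, and the part of dividing cells in the repair gene values was not tested.

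The profiles most like that of the repair genes were sought among all gene names with a tested probe, by Pearson's r over the 7 arrays with the mean of the centred values of the 5 tested repair genes. They were Adm, the vasodilator adrenomedullin (r = 0.991), Cyb561, a cytochrome (0.987), Gins2, a subunit of the GINS complex of the replicative helicase (0.984), Ttyh1, a chloride channel family member (0.978) and Kng1, kininogen (0.978). Their log2 differences were 1.26, 1.73, 1.04, 0.90 and 3.37 in that order. Of these 5, Kng1 alone rose past the test, with a limma adjusted p of 0.0436. The 7 points share 2 groups and 4 slides, and r is given as a description.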

How the data were processed

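The authors deposited, for each of 7 arrays, the output of the Agilent scanner software, in which the processed signal is a background-subtracted intensity without normalisation between arrays. They also deposited log2 values of all arrays, whose settings are not given in the sources used here, and these were joined to the spots by row order (rank correlation with the intensity 0.994 to 0.9987). The software version was 10.7.3.1, and 11.5.1.1 for EXO-Post BSA replicate 3. That output has no mean signal, so normexp used the median signal of all arrays, with an offset of 50. A floor, where named, was 0.5.

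The processed signal was taken to log2, and each array was set to 0 at the 75th percentile of its 43020 non-control spots. Uneven and outlier spots were left out. The comparison of groups used limma 3.58.1, run in R 4.3.3 (jsonlite 2.0.0 and data.table in version 1.17.8), with Benjamini-Hochberg adjustment over 21589 probes. Adjusted p-values in the text are from this model. Single probes also had an exact 2-sided permutation test. Figures used Python 3.11.15, pandas 2.3.3 and matplotlib 3.10.9. Probes are placed by the array annotation on mm9, promoters by RefSeq on GRCm38.p6.

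The 9 genes, the lists and the tests were chosen with earlier results of these data known. Named genes were all 9, the partners Palb2, Bard1, Fanci, Fancb and Atr, the highest and lowest gene of each list, every list gene past the threshold, and the 5 most similar profiles. Genes that the rule also covers are not all reported here. A list counted the brightest tested probe of each gene. On simulated data, 200 of 21589 probes were shifted. The model found 86 of 100 shifted by a log2 value of 2 and 3 of 100 shifted by 1. Of its 94 calls 5 were false. The number of arrays limits the precision. There were 20 alternatives, which covered background, normalisation, filter, slide, replicate number, weights, moderation, test and each array left out.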

Additional observations from a re-analysis of the deposited data

How the results depend on the processing

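None of the 5 tested repair genes passed the adjusted p by limma under most of the 20 alternatives. The exceptions were 1 gene (Brca2) when only probes well above background on all 7 arrays were tested, and 1 gene (Exo1) without EXO-Post Palm replicate 2, so that leaving out each array in turn gave 0 to 1. The median log2 difference was 1.09, and it was 0.48 with normexp and quantile normalisation, 0.45 with the background subtracted and a floor, and 0.60 from the authors' processed values. The cause of this change was not tested, and each of these medians includes Fanca. Brca2, Exo1, Fanca and Blm kept a difference above 0 in every alternative that gave one, and Chek1 in 17 of 19.

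With the replicate block the median was 1.14 with 0 genes past the threshold. The methods name no pairing of cultures, so the main model has no such block. Same-numbered arrays of both groups had correlations of their deviations of 0.122, -0.15 and -0.148. So few values cannot settle whether the cultures were paired. Over the whole array the block called 0 probes where the model without it called 115. Calls over the whole array also moved with single libraries, from 0 without EXO-Post BSA replicate 1 to 202 without EXO-Post Palm replicate 2, and they were 0 by the methods' t-test and with no probe filter.

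Signal over background limits the result, since 4 of the 9 probes could not be tested and Fanca was well above background on 1 EXO-Post BSA array. A change of 1 on the log2 scale was recovered for 3 of 100 simulated probes, a rate that is not specific to any repair gene. The standard error of the log2 difference was 0.22 for Brca2 and 0.71 for Chek1. A repair gene that missed the threshold is thus not shown to be the same in both groups.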
